A study of Mus musculus with 12 samples.

Results

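5 genes of histone supply were examined: H3c14 and H3c15, which encode the replication-dependent histone H3, and Slbp, Npat and Lsm11, whose products act in making histone mRNA. They were found by gene symbol, 1 probe set each, and are 5 of the 23185 genes with a named probe set on the array. They had been picked with the difference between high and low membrane potential already known, so their values in that comparison are a description, without a test.

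The samples were mouse pluripotent stem cells, female and of C57BL/6 background, grown undifferentiated without serum or feeder cells in 2iLIF medium on gelatin. They were stained with TMRM, a dye that gathers in mitochondria as their membrane potential grows, then sorted by flow cytometry into high and low fractions. The 4 groups, of 3 arrays each, were induced pluripotent stem cells (iPSC, reprogrammed somatic cells) with high potential, iPSC with low potential, embryonic stem cells (ESC) with high potential and ESC with low potential. Every group carried the dye and the sort, and no unsorted or unstained cells were analysed here. The sources used here name no line, clone or reprogramming method, and nothing says that arrays of a group came from separate cultures, so p-values measure the spread between these arrays, which may be technical. All levels below are log2 values made with RMA, a method that normalizes the arrays together, and a difference of 1 is a change by a factor of 2.

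Most histone genes lie in clusters and are switched on when DNA is copied. Their mRNAs end in a conserved stem-loop instead of a poly(A) tail. NPAT, a coactivator phosphorylated by cyclin E and CDK2, gathers at the clusters in histone locus bodies and drives their transcription. The stem-loop binding protein SLBP holds the end of the new transcript, and the U7 small nuclear ribonucleoprotein (snRNP), of which LSM11 is a subunit, guides the cut that forms it. SLBP also carries the mRNA to the ribosome and is degraded as cells leave S phase, after which histone mRNA decays. Pluripotent cells divide rapidly and spend much of the cycle in S phase.

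The start-site windows are shown to let the H3 gene copies be told from each other, and set beside those of Slbp and Npat. Whether the windows bear on the levels was not tested. Each window runs from 250 bases before to 50 after the RefSeq start (GRCm38.p6), in the direction of transcription, and all 5 genes had one. The H3c14 window is chr3:96246435-96246734 on the plus strand and the H3c15 window chr3:96239078-96239377 on the minus strand. The Slbp window is chr5:33652525-33652824 on the minus strand and the Npat window chr9:53536797-53537096 on the plus strand. Capitals mark CCAAT boxes on either strand (ATTGG where the match is on the opposite strand).
H3c14: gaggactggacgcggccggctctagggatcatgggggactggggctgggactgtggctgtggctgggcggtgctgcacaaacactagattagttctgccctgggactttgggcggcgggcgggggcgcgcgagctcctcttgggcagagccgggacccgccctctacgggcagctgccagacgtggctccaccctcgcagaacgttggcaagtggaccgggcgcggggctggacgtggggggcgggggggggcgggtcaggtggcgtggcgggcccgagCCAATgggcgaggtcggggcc
H3c15: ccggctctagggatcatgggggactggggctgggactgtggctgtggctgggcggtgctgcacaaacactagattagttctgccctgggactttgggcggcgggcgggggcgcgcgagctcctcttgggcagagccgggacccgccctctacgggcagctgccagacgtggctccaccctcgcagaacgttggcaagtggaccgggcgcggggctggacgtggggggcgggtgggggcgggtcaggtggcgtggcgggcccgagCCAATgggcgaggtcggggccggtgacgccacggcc
Slbp: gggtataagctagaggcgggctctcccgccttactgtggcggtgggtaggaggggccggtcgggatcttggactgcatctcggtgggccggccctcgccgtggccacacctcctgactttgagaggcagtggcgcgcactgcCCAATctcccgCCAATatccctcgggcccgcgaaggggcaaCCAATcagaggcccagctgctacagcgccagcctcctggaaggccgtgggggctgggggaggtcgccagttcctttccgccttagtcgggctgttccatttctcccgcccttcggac
Npat: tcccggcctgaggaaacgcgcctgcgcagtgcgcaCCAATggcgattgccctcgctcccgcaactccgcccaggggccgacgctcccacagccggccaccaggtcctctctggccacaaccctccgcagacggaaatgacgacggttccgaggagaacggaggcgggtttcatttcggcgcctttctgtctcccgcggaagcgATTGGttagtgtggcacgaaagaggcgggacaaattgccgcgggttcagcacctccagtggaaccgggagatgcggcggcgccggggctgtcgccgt

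Set 15 bases apart, the H3c14 and H3c15 windows were identical at 284 of 285 overlapping bases (99.6%). The 1 substitution was G247T, counted from 1 at the first base of the H3c14 window, with the H3c14 base first. Without gaps, the best match of the H3c14 window to the Slbp, Npat and Lsm11 windows was 38.3%, 38.8% and 38.4% identity. The H3 windows were also richer in G and C, at 72.7% of bases against 66.7% in each of the Slbp, Npat and Lsm11 windows and a median of 52.7% over all windows.

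4 motifs were searched on both strands, and no match overlapped a match of another motif. CCAAT, the box bound by NF-Y, occurred once in the H3c14 window at bases 30 to 34 after the start and once in the H3c15 window at bases 15 to 19, which is the same site in the aligned sequence. The Slbp window held 3 copies, beginning at positions -108, -97 and -67 from the start, the Npat window 2, beginning at -215 and -47, and the Lsm11 window 0. Of all 32851 windows of that length, 37.4% held CCAAT. The GC box GGGCGG matched 6 times in each H3 window, 2 times in the Lsm11 window and 1 time each in those of Slbp and Npat, and was in 35.7% of all windows. TATAAA and TTTNNCGC, an E2F-like motif, matched 0 times in the 5 windows and were in 13.6% and 5.17% of all windows.

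Markers of the labelled cell type were measured by how bright their probe sets were, which also depends on the probes. Of 10 markers of pluripotent cells, 8, among them Nanog (10.4 to 10.7 over the 12 arrays) and Sox2 (8.63 to 9.10), lay above the upper quartile of all probe sets on every array, and Pou5f1 (5.90 to 6.26) and Dppa5a (3.78 to 4.29) did not. Of 10 fibroblast markers, 0 lay above the upper quartile and 3 (Postn, Lum and Dcn) lay below the lower quartile on every array. Of 8 primitive endoderm markers, Lama1 (6.59 to 7.42) lay above the upper quartile on every array, and of 8 neural and mesoderm markers 0 did. In the comparison of high with low cells, averaged over iPSC and ESC, limma called 0 of the 10 pluripotency, 10 fibroblast, 8 primitive endoderm and 8 neural and mesoderm markers, with 0, 2, 2 and 0 at an unadjusted p under 0.05. In that comparison 3937 of all 25206 probe sets had an unadjusted p under 0.05 (limma). After Benjamini-Hochberg adjustment 2.5% were called at an adjusted p under 0.05, 1.6% higher and 0.905% lower in high cells. That split, 403 higher and 228 lower, was 361 and 368 with each array centred on its median and 523 and 417 with the replicate block.

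H3c14 and H3c15 were far higher in high-potential than in low-potential cells, in iPSC and in ESC alike. H3c14 read 5.63, 6.67 and 6.37 in iPSC high, against 4.43, 4.50 and 4.12 in iPSC low. In ESC it read 6.46, 5.92 and 5.82 in high cells, against 3.37, 4.46 and 4.07 in low cells. Each of the 6 high arrays lay above each of the 6 low arrays, with more than 1 log2 unit between the lowest high array and the highest low one. Group means were 6.22 ± 0.53 in iPSC high, 4.35 ± 0.20 in iPSC low, 6.07 ± 0.34 in ESC high and 3.97 ± 0.56 in ESC low (SD, n = 3 each). The difference, high minus low, was 1.87 in iPSC, 2.10 in ESC and 1.99 ± 0.21 (SE) averaged over the cell types, a level 3.97 times that of low cells. It ranked 1st of 25206 probe sets in the average and in iPSC, and 2nd in ESC.

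H3c15 showed the same picture at its own probe set. It read 3.90, 4.92 and 4.90 in iPSC high, against 2.82, 2.78 and 2.84 in iPSC low. In ESC it read 5.01, 4.76 and 4.39 in high cells, against 2.63, 2.92 and 2.60 in low cells. High and low arrays did not overlap, and the low arrays sat close together while the high arrays were spread out. The mean was 4.57 ± 0.58 in iPSC high, 2.81 ± 0.03 in iPSC low, 4.72 ± 0.31 in ESC high and 2.72 ± 0.17 in ESC low (SD, n = 3 each). High minus low was 1.76 in iPSC, 2.01 in ESC and 1.88 ± 0.17 (SE) in the average, 3.69 times the level of low cells and the 3rd highest difference on the array. In low cells the H3c15 probe set read near the lower quartile of all probe sets, which was 2.08 to 2.20 across the arrays, and the values carry no detection calls.

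**Figure D1:**
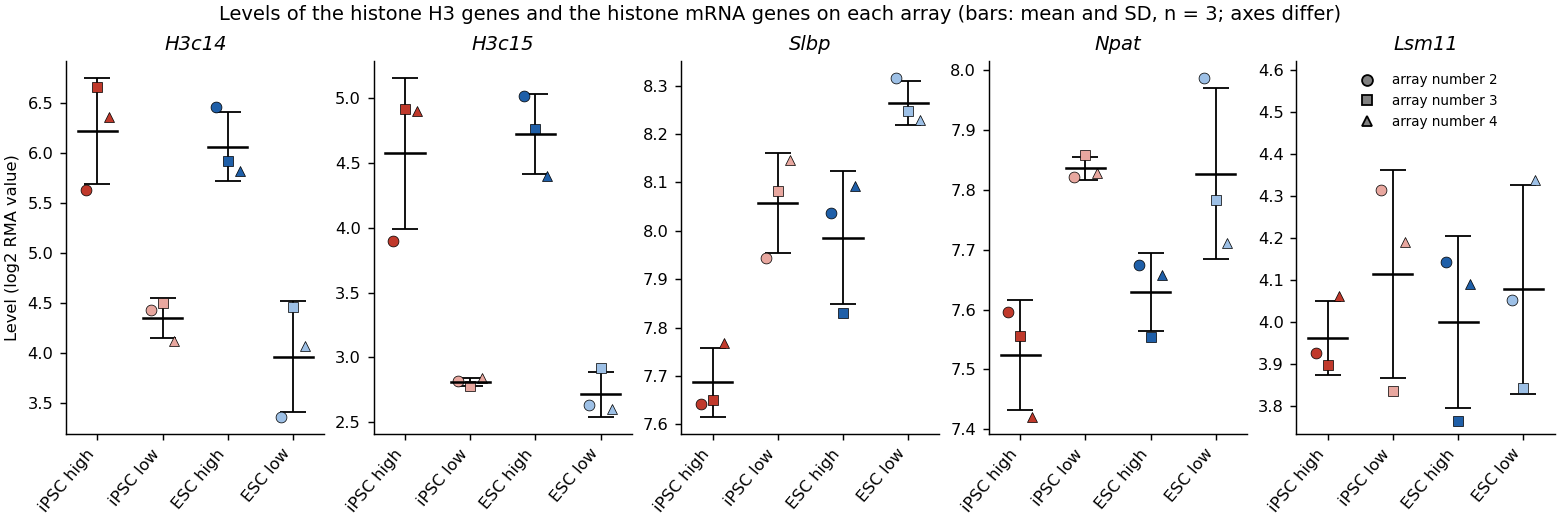
Log2 level of each gene on each of the 12 arrays (marker shape: array number; horizontal bar and whiskers: mean and SD of 3 arrays; each panel has its own axis). High arrays of H3c14 (5.63 to 6.67) and H3c15 (3.90 to 5.01) lie above all low arrays in both cell types, those of Slbp and Npat lie below the low arrays of their own cell type, and those of Lsm11 overlap.

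The size of the step varied between same-numbered arrays, which were taken as pairs within a cell type. That was inferred from the data, since the labels do not say what the numbers mark, and it is uncertain in iPSC. For H3c14 the level in high cells was 2.31, 4.49 and 4.75 times that in low cells in iPSC pairs 2, 3 and 4, and 8.55, 2.75 and 3.37 times in the ESC pairs. For H3c15 the corresponding ratios were 2.12, 4.39 and 4.15 in iPSC and 5.19, 3.60 and 3.46 in ESC. Pair 2 thus gave the smallest step for both genes in iPSC and the largest for both in ESC. The deviations of the probe sets from their group means had a Pearson correlation of 0.77 over the 12 arrays (levels: 0.97), given as a description over arrays of 4 groups. RefSeq start windows as alike as these belong to near-identical gene copies, and their probe sets may share signal. The values are therefore uncertain as to the copy and are not independent evidence of each other.

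Slbp, the binding protein of the histone stem-loop, was moderately lower in high cells. It read 7.64, 7.65 and 7.77 in iPSC high, against 7.94, 8.08 and 8.15 in iPSC low. In ESC it read 8.04, 7.83 and 8.09 in high cells, against 8.32, 8.25 and 8.23 in low cells. The fractions did not overlap within either cell type, and the 3 iPSC high arrays were the lowest of all 12. High minus low was -0.37 in iPSC, -0.28 in ESC and -0.32 ± 0.07 (SE) in the average, a level 0.80 times that of low cells. All 6 pairs ran the same way, with ratios of high to low between 0.74 and 0.91.

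Npat, the histone locus body coactivator, was lower in high cells by a similar margin. It read 7.60, 7.56 and 7.42 in iPSC high, against 7.82, 7.86 and 7.83 in iPSC low. In ESC it read 7.67, 7.55 and 7.66 in high cells, against 7.99, 7.78 and 7.71 in low cells. The fractions stood well apart in iPSC and nearly touched in ESC, where pair 4 differed by only 0.05. High minus low was -0.31 in iPSC, -0.20 in ESC and -0.26 ± 0.07 (SE) in the average. The average ranked 1292nd from the lowest of 25206 probe sets, and that of Slbp 691st. Without ESC low replicate 2, the highest low array, the ESC value was -0.12.

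Lsm11, whose protein with LSM10 sets the U7 snRNP apart from those of the spliceosome, gave no separation of the fractions. It read 3.93, 3.90 and 4.06 in iPSC high, against 4.31, 3.84 and 4.19 in iPSC low. In ESC it read 4.14, 3.77 and 4.09 in high cells, against 4.05, 3.84 and 4.34 in low cells. High and low arrays overlapped in both cell types, and 4 of the 6 pairs were lower in high cells. High minus low was -0.12 ± 0.11 (SE) in the average.

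So H3c14 and H3c15 lay above, and Slbp and Npat below, without overlap in both cell types. Of all probe sets, 1.98% lay above and 1.83% below in that way; the genes had been chosen on this contrast, and nothing is read from their count. In bulk samples such as these, a change in the number of cells that hold an mRNA and a change in its amount per cell cannot be told apart.

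The other histone genes did not share the step of H3c14 and H3c15. Of 70 replication-dependent histone genes listed, 36 had a named probe set, and 34 of these were not H3c14 or H3c15. Among the 34, 1 rose and 0 fell in high cells at an adjusted p under 0.05 (limma, average of iPSC and ESC), against 1.6% of all probe sets rising. Their median difference was -0.05, beside 0.00 over all probe sets, with 12 above 0 and 22 below, and a range of -0.41 to 0.57. Of the 34, 10 had a mean level below the lower quartile of all probe sets. The 24 others had a median of -0.08.

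**Figure D2:**
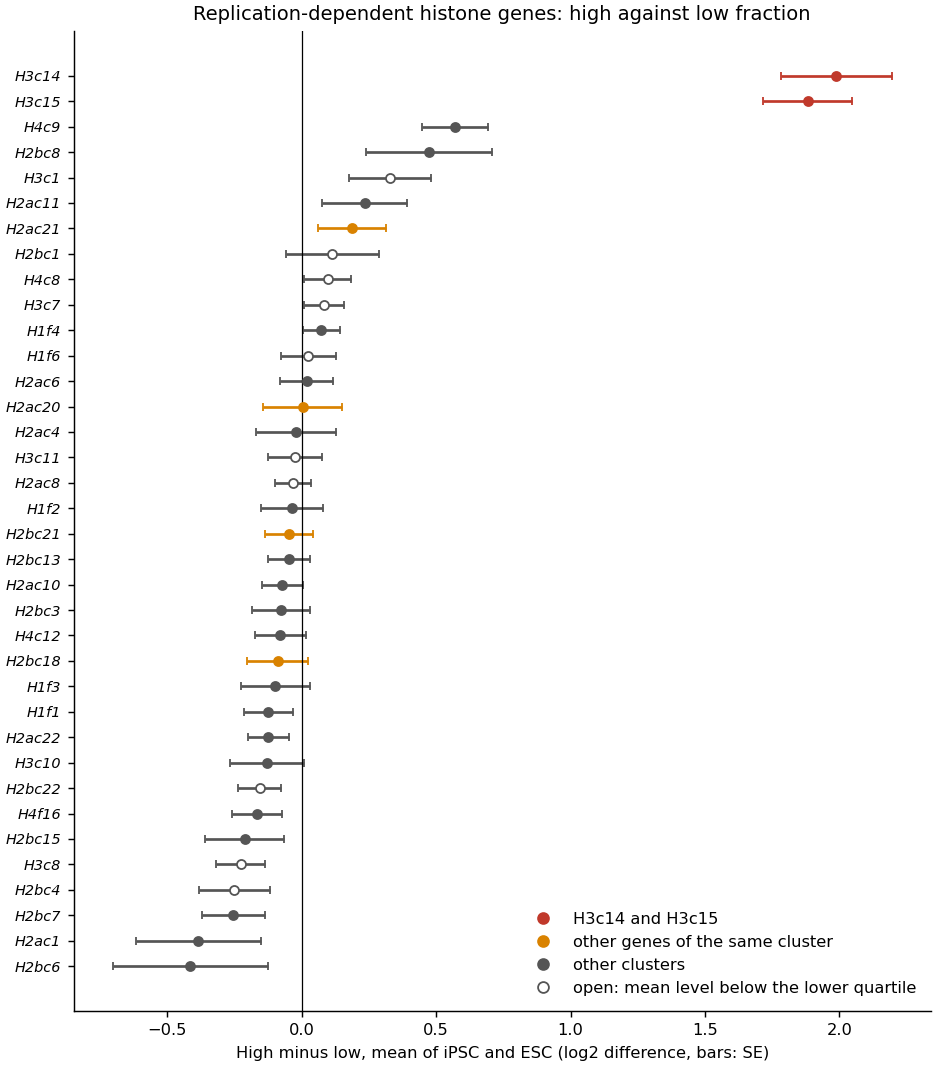
High minus low log2 difference, averaged over iPSC and ESC, for the 36 measured replication-dependent histone genes (points: estimate; bars: SE of the limma fit; open points: mean level below the lower quartile). H3c14 (1.99) and H3c15 (1.88) stand apart from the other 34, which range from -0.41 to 0.57.

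The gene that rose was H4c9, one of the clustered histone H4 genes. It read 2.21, 2.48 and 2.31 in iPSC high, against 1.78, 2.05 and 1.75 in iPSC low, and 2.50, 2.74 and 2.77 in ESC high, against 2.44, 1.63 and 1.95 in ESC low. High arrays lay above low arrays in both cell types, at a level around the lower quartile. Its difference was 0.57 ± 0.12 (SE, limma adjusted p = 0.0297). It no longer passed when any 1 of 7 arrays was left out (iPSC high replicates 3 and 4, iPSC low 2 and 4, ESC high 3 and 4, ESC low 4), at adjusted p values of 0.0558 to 0.0788.

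Among the other H3 genes, H3c10 was the only one above the lower quartile, and it read 5.20, 5.55 and 5.11 in iPSC high, against 5.16, 5.75 and 5.05 in iPSC low. In ESC, H3c10 read 5.17, 5.26 and 4.79 in high cells, against 5.07, 5.48 and 5.34 in low cells. These overlapped in both cell types, and the difference of -0.13 ± 0.14 (SE) had an adjusted p of 0.717 (limma). H3c1 (0.33), H3c7 (0.08), H3c8 (-0.23) and H3c11 (-0.02) did not pass either, with 1 of the 5 at an unadjusted p under 0.05. Over all probe sets, 3937 of 25206 had such a p. H3c13, the third H3 gene of the same cluster, has no named probe set here.

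H3c14 and H3c15 lie in a histone cluster on chromosome 3, in the order H2ac21, H2ac20, H2bc21, H3c15, H2ac19, H2ac18, H3c14, H4c14, H3c13 and H2bc18 (RefSeq, GRCm38.p6). The neighbours with a named probe set encode H2A and H2B histones. H2ac21 differed by 0.19, H2ac20 by 0.00, H2bc21 by -0.05 and H2bc18 by -0.09, high minus low, with limma adjusted p values of 0.529, 0.995, 0.856 and 0.764. Their high and low arrays overlapped in both cell types. H2ac20, for example, read 7.64, 8.31 and 8.27 in iPSC high, against 8.04, 7.78 and 8.21 in iPSC low.

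Most genes that make, bind or degrade histone mRNA did not pass the test either. Of 53 listed, 49 were measured, and of the 46 that were not Slbp, Npat or Lsm11, 2 rose and 1 fell (limma, adjusted p under 0.05), with 9 at an unadjusted p under 0.05. Their median difference was -0.02, beside 0.00 over all probe sets. Of all probe sets, 2.5% were called, and 3937 of 25206 had an unadjusted p under 0.05.

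In the histone locus body, Casp8ap2 fell in high cells, as Npat was lower there. Casp8ap2 encodes FLASH, which sits in the locus body and binds LSM11 in the cleavage complex. It read 6.58, 6.45 and 6.48 in iPSC high, against 6.94, 7.06 and 7.04 in iPSC low. In ESC it read 6.66, 6.59 and 6.68 in high cells, against 7.08, 6.97 and 6.86 in low cells. The fractions did not overlap in either cell type, and the difference was -0.42 ± 0.06 (SE, limma adjusted p = 0.00448). Hinfp, the histone H4 promoter factor that works with NPAT, differed by -0.27 ± 0.08 (SE) and did not pass (limma adjusted p = 0.0942).

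Zfp473, the mouse counterpart of a human zinc finger protein that binds the U7 snRNP, rose. It read 4.86, 4.75 and 4.84 in iPSC high, against 4.57, 4.41 and 4.43 in iPSC low, and 4.68, 4.71 and 4.68 in ESC high, against 4.32, 4.38 and 4.46 in ESC low. All high arrays lay above all low arrays, and the difference was 0.33 ± 0.06 (SE, limma adjusted p = 0.012). The U7 and cleavage list otherwise had 0 of 22 further genes past the threshold. Mxd1, a MAX partner that opposes MYC and was placed with the transcription factors, rose by 0.60 ± 0.14 (SE, limma adjusted p = 0.0442). Nothing measured here ties Mxd1 to histone mRNA, though it was 1 of the 2 genes counted as rising. Its call was lost without any 1 of 10 arrays, all but ESC low replicate 3 and ESC high replicate 4, at adjusted p values up to 0.112. Of 14 genes of histone mRNA translation and decay besides Slbp, 0 passed. Of these, 2 had an unadjusted p under 0.05, against 3937 of all 25206 probe sets.

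**Figure D3:**
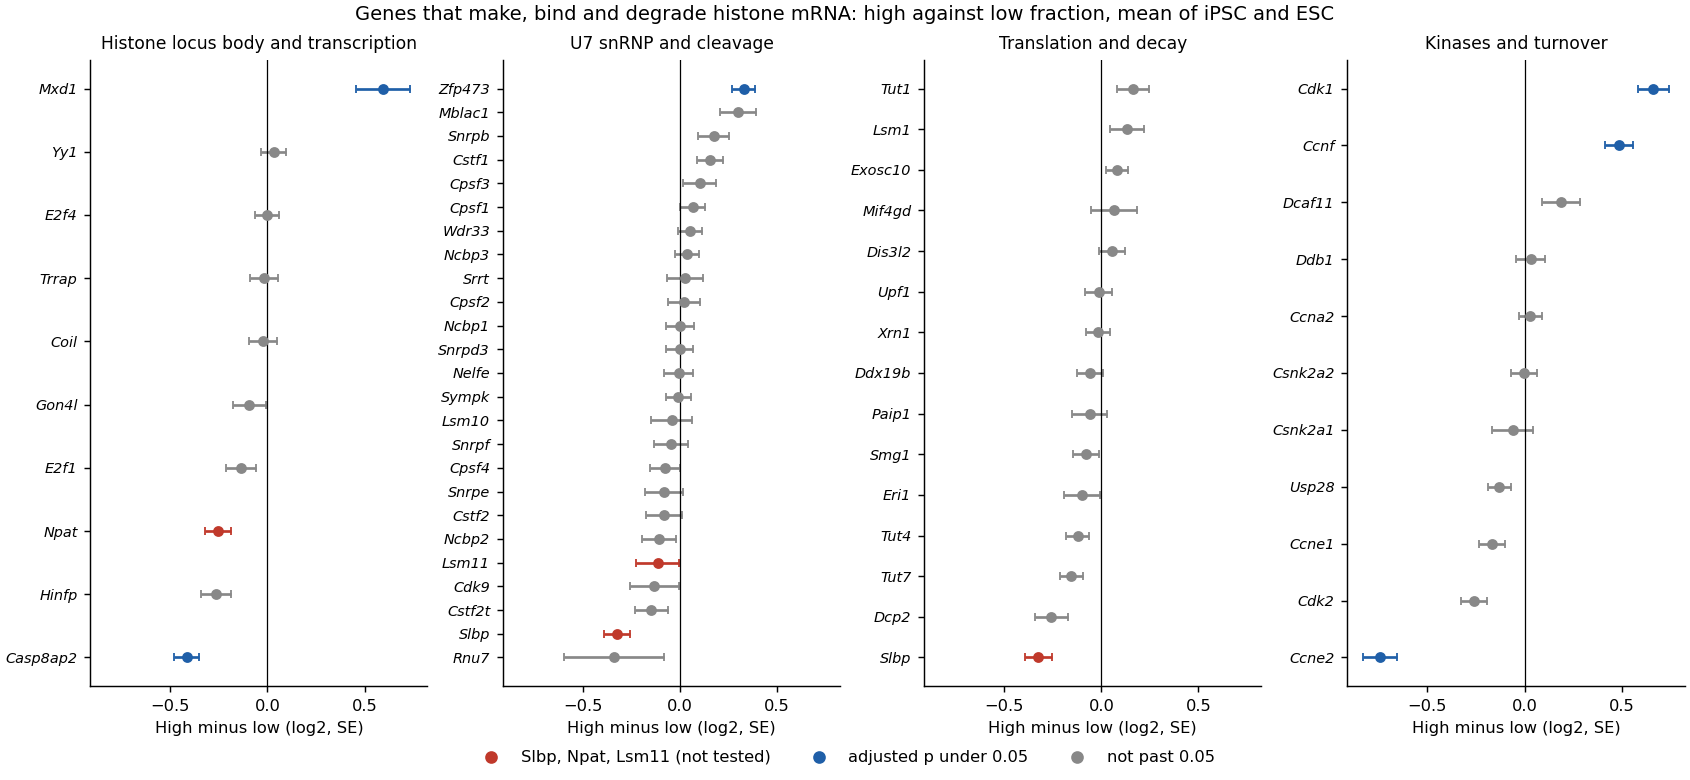
High minus low log2 difference, averaged over iPSC and ESC, for genes of 4 functional lists (points: estimate; bars: SE of the limma fit; blue: adjusted p under 0.05; red: Slbp, Npat and Lsm11, not tested). Slbp (-0.32), Npat (-0.26) and Casp8ap2 (-0.42) lie to the left, and Cdk1 (0.66), Ccnf (0.48) and Ccne2 (-0.74) are the changed genes of the kinase and turnover list.

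Of 11 measured genes for the enzymes that act on NPAT and SLBP, 2 rose and 1 fell. Of all probe sets, 1.6% rose and 0.905% fell. Ccne2, whose cyclin E2 activates CDK2 towards NPAT, fell by 0.74 ± 0.09 (SE, limma adjusted p = 0.00102). It read 5.30, 5.53 and 5.36 in iPSC high, against 6.23, 6.18 and 6.25 in iPSC low, and the ESC arrays also did not overlap. Cdk1, whose kinase phosphorylates SLBP at the end of S phase in human cells, rose by 0.66 ± 0.08 (SE, limma adjusted p = 0.00112). Ccnf, which encodes cyclin F, the ubiquitin ligase subunit that marks SLBP for destruction in G2 in human cells, rose by 0.48 ± 0.07 (SE, limma adjusted p = 0.00448). It read 9.20, 9.21 and 9.17 in iPSC high, against 8.61, 8.72 and 8.81 in iPSC low, again without overlap.

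Cell cycle genes moved along with these values. Their lists were chosen with earlier results of these data known. Cdk1 and Ccne2 are counted here again, since both were also in the kinase and turnover list. Of 24 genes of G2 and mitosis, 17 rose and 0 fell (median 0.38, all 24 above 0), against 1.6% of all probe sets rising. Of 20 genes of G1/S and S phase, 3 fell (Ccne2, Cdc6 and Ung) and 0 rose (median -0.14, all 20 below 0), against 0.905% falling. That background count was over 1.5 times larger with median centring or the block, as given above. In iPSC alone the same 3 fell (median -0.19, 20 below 0). In ESC alone only Ccne2 fell (median -0.08, 18 below 0 and 2 above). The mean level over the G2 and mitosis list ranged from 8.31 to 8.38 in iPSC high, 7.91 to 7.97 in iPSC low, 8.19 to 8.34 in ESC high and 7.82 to 7.89 in ESC low. Their part in the values of H3c14, H3c15, Slbp and Npat was not tested.

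Between cell types, the H3 genes did not differ detectably. H3c14 was 0.27 ± 0.21 (SE) higher in iPSC than in ESC over both fractions, with a 95% interval of -0.18 to 0.72 (limma adjusted p = 0.623). H3c15 differed by -0.03 ± 0.17 (SE), with an interval of -0.39 to 0.33 (limma adjusted p = 0.966). Arrays of iPSC and ESC overlapped for both genes in both fractions. In high cells alone the interval of H3c14 ran from -0.48 to 0.79, so the cell types are not shown to be alike.

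Slbp was lower in iPSC than in ESC in both fractions, without overlap. Its mean was 7.69 ± 0.07 in iPSC high and 8.06 ± 0.10 in iPSC low, against 7.99 ± 0.14 in ESC high and 8.26 ± 0.05 in ESC low (SD, n = 3 each). The order of the groups was therefore iPSC high, ESC high, iPSC low and ESC low, where the ranges of ESC high and iPSC low overlapped. Over both fractions iPSC minus ESC was -0.25 ± 0.07 (SE), with an interval of -0.40 to -0.10, and did not pass (limma adjusted p = 0.0743). It passed with an intensity trend in limma or with dim probe sets left out (adjusted p = 0.0281 and 0.033). In neither fraction alone did Slbp pass. Over the other settings its limma adjusted p was 0.151 to 0.388 in high cells and 0.283 to 0.565 in low cells. Among all probe sets 2.87% were called over both fractions. In iPSC, 7.59% lay lower without overlap in high cells and 7.79% in low cells. The fit over both fractions counted the high and low arrays of a pair as separate. Its SE may therefore be too small and its calls too many. With the arrays of 1 fraction alone, limma called 0 probe sets higher and 1 lower in iPSC in high cells. In low cells it called 2 higher and 1 lower.

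Npat (-0.05 ± 0.07) and Lsm11 (0.00 ± 0.11, SE) showed no detectable difference between iPSC and ESC, with limma adjusted p values of 0.824 and 0.998. Their intervals were -0.19 to 0.10 for Npat and -0.24 to 0.24 for Lsm11. Of the other 46 genes of histone mRNA production, 1 passed, against 2.87% of all probe sets, so nothing is read from that count. The gene was Cpsf2, the partner of the histone cleavage nuclease CPSF3. Cpsf2 was 0.44 ± 0.08 (SE) lower in iPSC (limma adjusted p = 0.0117), and the cell types did not overlap in either fraction. Of all probe sets, 7.59% lay lower in iPSC without overlap in high cells and 7.79% in low cells. The fit for Cpsf2, too, counted the high and low arrays of a pair as separate, so its SE may be too small. Of the other 34 replication-dependent histone genes 0 passed, with 4 at an unadjusted p under 0.05, against 3709 of all 25206 probe sets.

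No difference in the step between fractions was detected between the cell types. The difference of the differences, iPSC minus ESC, was -0.23 ± 0.41 (SE) for H3c14, -0.25 ± 0.33 for H3c15, -0.09 ± 0.14 for Slbp, -0.11 ± 0.13 for Npat and -0.07 ± 0.22 for Lsm11. Each had a limma adjusted p that rounds to 1.0. Limma called 0.0% of all probe sets here, with 1100 of 25206 at an unadjusted p under 0.05 and 1 called with the replicate block. The 95% interval ran from -1.13 to 0.67 for H3c14 and from -0.97 to 0.47 for H3c15. These arrays do not exclude differences within those bounds.

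**Figure D4:**
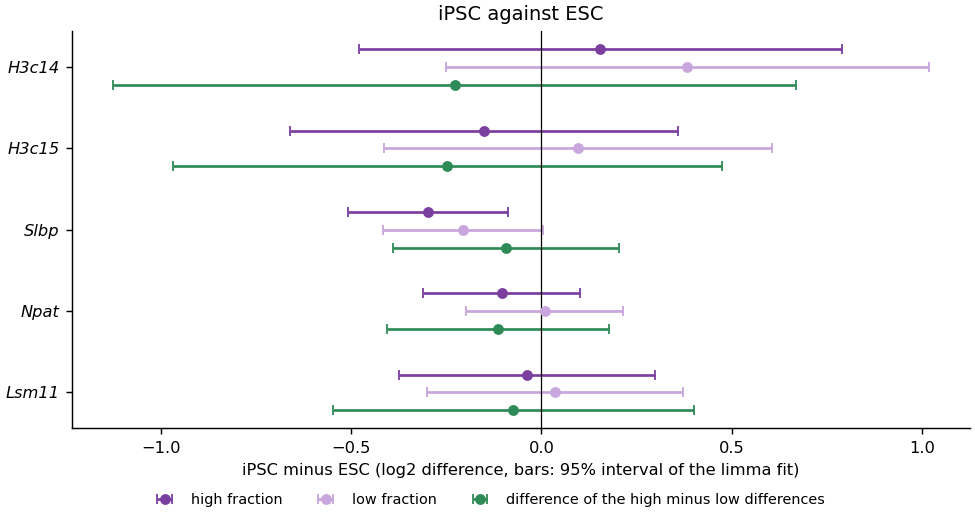
iPSC minus ESC log2 difference in high cells, in low cells, and the difference of the high minus low steps, for the 5 genes (points: estimate; bars: 95% interval of the limma fit). For Slbp the difference in high cells is -0.30 with an interval of -0.51 to -0.09, and the intervals of the other 4 genes cover 0. The intervals are not adjusted for the number of probe sets, and after adjustment the Slbp difference in high cells did not pass.

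Over the 12 arrays, the genes most like the mean of H3c14 and H3c15 among 19546 named genes were Gdpd2, Klhl34, Plac8l1, Aurkb and Fam161a, with Pearson correlations of 0.958, 0.951, 0.939, 0.937 and 0.937. The arrays fall into high and low groups, and these correlations mostly follow that split. Gdpd2 read 3.53, 4.07 and 3.65 in iPSC high, against 2.58, 2.60 and 2.17 in iPSC low, and its difference over both cell types was 1.18 ± 0.13 (SE). Aurkb, the kinase that phosphorylates histone H3 in mitosis, differed by 0.68 ± 0.07 (SE).

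The genes most like Slbp were Selenof, Nfyb, Txnl1, Cald1 and Rab23, with correlations of 0.957, 0.952, 0.940, 0.937 and 0.936. Nfyb encodes a subunit of NF-Y, the CCAAT-binding factor. It read 5.99, 6.18 and 6.11 in iPSC high, against 6.37, 6.44 and 6.56 in iPSC low, and 6.33, 6.25 and 6.40 in ESC high, against 6.85, 6.70 and 6.62 in ESC low. Like Slbp, Nfyb was lower in high than in low cells and lower in iPSC than in ESC, each without overlap. The same held for Selenof, Txnl1 and Rab23. These genes were picked for their likeness to Slbp on these arrays, so a shared order of groups follows from the choice. A link between Nfyb and the CCAAT boxes of Slbp was not tested. The lowest correlations with Slbp were those of Acta1 (-0.93), Tent5c (-0.92), Myocos (-0.92), Parn (-0.92) and Ucn (-0.91). Parn, a poly(A)-specific ribonuclease, differed by 0.13 ± 0.06 (SE) between high and low cells.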

How the data were processed

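RNA from sorted cells was labelled with the WT Plus kit and hybridised to Affymetrix arrays, per the labels' protocols. The authors deposited log2 expression values, 1 column per array and 25206 probe sets. They used RMA in affy 1.36.1 under R 2.15.1, per the submitters' processing notes; chip definition and genome build: not given in the sources used here. There were no detection calls. Levels also depend on the probes, so the quartiles of all probe sets serve only to describe how bright a probe set was. The number of arrays limits the precision. Platform annotation gave 1 symbol to 23185 probe sets and none to 2021.

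Group means were fitted over all 12 arrays in limma 3.58.1 (R 4.3.3) and adjusted by Benjamini-Hochberg over all probe sets. The fit was also run on simulated data, with independent noise on each array and effects only on probe sets above the median level. That run does not cover paired arrays or dim probe sets. The 5 genes and 17 gene lists were chosen with earlier results of these data known. Named beside the 5 were list genes that passed any comparison or had the 3 lowest p values of a list, other H3 and cluster genes, and those most like H3c14 and H3c15 or Slbp. Replicate numbers were checked as pairs. Residuals of same-numbered high and low arrays correlated at 0.107 to 0.213 in iPSC and 0.233 to 0.341 in ESC. All were above 0.1, so they were taken as pairs, and those of iPSC and ESC (-0.095 to 0.131) were not. Arrays that differed in both number and cell type reached 0.167, above iPSC pairs 2 (0.107) and 3 (0.127). The pairing in iPSC is therefore uncertain. Alternatives were the replicate block, median centring, a further quantile normalization, leaving out dim probe sets, an intensity trend, robust moderation, fewer groups and each array left out. Promoter windows were RefSeq's. Plots used matplotlib 3.10.9 (Python 3.11.15).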

Additional observations from a re-analysis of the deposited data

How the results depend on the processing

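The high minus low values of the 5 genes kept their direction under every setting other than leaving out an array, with H3c14 at 1.95 to 1.99 in the average, H3c15 at 1.84 to 1.88, Slbp at -0.36 to -0.30, Npat at -0.30 to -0.23 and Lsm11 at -0.15 to -0.12. With 1 array left out they ranged from 1.84 to 2.14, 1.80 to 2.05, -0.35 to -0.29, -0.28 to -0.22 and -0.18 to -0.05. In ESC alone, the Lsm11 value turned sign with ESC high replicate 3 or ESC low replicate 4 left out (range -0.20 to 0.05). With the replicate block, which pairs the fractions within a cell type, the average was 1.99 for H3c14 and 1.88 for H3c15. With every pair complete, a block cannot change that mean difference. That block gives no iPSC minus ESC comparison. For the 5 genes it tested only the difference of steps, which passed for none of them.

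iPSC minus ESC of Slbp (-0.25) passed without dim probe sets (adjusted p = 0.033) and with an intensity trend (adjusted p = 0.0281), and not with 1 array left out (adjusted p 0.0545 to 0.166). For Npat in low cells it was -0.0056 after a further quantile normalization, against 0.009. Differences between the cell types near 0 also turned sign with 1 array left out. For H3c14 the difference of steps ranged from -0.475 to 0.0725 and iPSC minus ESC in high cells from -0.0665 to 0.449; for H3c15 they ranged from -0.419 to 0.0884 and -0.324 to 0.184, and the average from -0.114 to 0.14. Npat in low cells ranged from -0.0489 to 0.0888. Lsm11 ranged from -0.212 to 0.0442 for the difference of steps, -0.0600 to 0.068 in the average, -0.155 to 0.034 in high cells and -0.0821 to 0.174 in low cells. None of these sign-turning differences passed in the settings run.

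The count of other replication-dependent histone genes that rose was 0 without dim probe sets, since H4c9 is then not tested, and 0 to 1 with 1 array left out; of other histone mRNA genes, 1 to 2 rose. Kinase and turnover genes that fell numbered 2 with median centring, without dim probe sets and with a trend. Chaperones that fell numbered 1 with the block, 2 with median centring, 1 without dim probe sets and 3 with a trend, against 0. Of all 25206 probe sets, the average had 403 higher and 228 lower; the block gave 523 and 417, median centring 361 and 368. In iPSC the counts were 88 and 50 (block: 142 and 94), and in ESC 77 and 13 (block: 146 and 31). The causes were not tested. Of the calls on other named genes, 36 of 450 were lost under other settings and 221 of 852 with 1 array left out.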

Other observations

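Replacement and variant histones, and the proteins that carry histones, were also measured. Of 14 replacement and variant histone genes, 0 rose or fell in high against low cells by limma's adjusted p. Of these, 4 had an unadjusted p under 0.05, against 3937 of all 25206 probe sets. H2ax, the variant phosphorylated at DNA breaks, differed by 0.26 ± 0.06 (SE, limma adjusted p = 0.0572), and Cenpa, the histone H3 variant of centromeres, by 0.28 ± 0.08 (SE, limma adjusted p = 0.0907). H2aj, an H2A variant with the largest difference of the 14, differed by -0.43 ± 0.12 (SE, limma adjusted p = 0.096), with high arrays below low arrays in both cell types. Of the 14 differences, 7 were above 0 and 7 below.

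Of 24 histone chaperone genes, 1 rose and 0 fell, with 7 at an unadjusted p under 0.05. Over all probe sets 1.6% rose, and 3937 of 25206 had such a p. The chaperone gene that rose was Hjurp, which loads CENP-A at centromeres. Hjurp read 7.60, 7.55 and 7.52 in iPSC high, against 7.23, 7.17 and 7.28 in iPSC low, and 7.41, 7.43 and 7.44 in ESC high, against 7.03, 7.12 and 7.15 in ESC low. The difference was 0.33 ± 0.06 (SE, limma adjusted p = 0.00918). Chaf1b, a subunit of the chaperone that places new H3 and H4 behind the replication fork, differed by -0.27 ± 0.07 (SE, limma adjusted p = 0.0848).

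Between cell types, Usp28, a deubiquitinase, was 0.29 ± 0.06 (SE) higher in iPSC (limma adjusted p = 0.0223). It no longer passed when 1 of 6 arrays was left out (iPSC high 3 and 4, iPSC low 2 and 3, ESC high 3 and 4), at adjusted p values of 0.0507 to 0.0678. Rrm2, a subunit of the enzyme that makes deoxyribonucleotides, was 0.52 ± 0.07 (SE) lower in iPSC (limma adjusted p = 0.00264). For Usp28 and Rrm2 alike, the fit counted the high and low arrays of a pair as separate, so the SE may be too small.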
